A study of Homo sapiens with 12 samples.

Results

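The SOCS (suppressor of cytokine signalling) family is described here in HK-2 cells, an established epithelial line from the proximal tubule of the human kidney, exposed to the compound named CdCl in the labels or to its control vehicle. The family has 8 members, SOCS1 to SOCS7 and CISH, and all 8 were found among the 19775 genes that had a probe set annotated to exactly 1 symbol. They carried 25 such probe sets, and each gene was read on whichever of its probe sets had the highest 12-array mean. That mean is a measured value, and it was used to choose the probe set only. All 8 passed the filter on low signal, a log2 signal above 4 on at least 3 of the 12 arrays, which 10683 genes passed in all. The 4 groups were control at 12 h, CdCl at 12 h, control at 48 h and CdCl at 48 h, each with 3 biological replicates and 1 Affymetrix array per replicate. All groups shared a DMEM and Ham's F12 medium with glucose, to which insulin, transferrin, selenite, hydrocortisone and epidermal growth factor (EGF) had been added, and were treated close to confluence. The sources used here do not state the dose of CdCl, and a single cell line stands for the proximal tubule.

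SOCS proteins end cytokine signals. Cytokine receptors activate Janus kinases (JAKs), which phosphorylate STAT transcription factors; STATs then switch on target genes that include several SOCS genes, and the SOCS proteins in turn bind the receptor or the kinase through a central SH2 domain. At their carboxyl end all members carry a SOCS box, which recruits elongins B and C and cullin 5 into a ubiquitin ligase. CISH and SOCS1 to SOCS3 are the classical feedback members: CISH and SOCS2 are textbook targets of STAT5 downstream of growth hormone and related cytokines, SOCS3 is induced through STAT3 and restrains the IL-6 receptor chain gp130, and SOCS1 blocks interferon signalling. SOCS4 to SOCS7 have long amino-terminal regions and act more on growth factor and insulin signalling. SOCS4 and SOCS5 are linked to the EGF receptor, SOCS6 to the receptor tyrosine kinase KIT and to insulin receptor substrates, and SOCS7 to insulin signalling.

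The promoters of CISH and SOCS3 are shown because the results turn on these feedback members. CISH was lower with CdCl at both times, although its call at 48 h was lost without either of 2 arrays. The change of SOCS3 turned direction between the times on its brightest probe set. The sequences come from RefSeq on GRCh38.p14 and cover the 250 bases before an annotated start, both on the minus strand. They are chr3:50611775-50612024 for CISH and chr17:78360926-78361175 for SOCS3, the first listed of its 2 start sites. Capitals mark TTCNNNGAA, the palindrome that STAT proteins bind, which reads the same on both strands.
CISH: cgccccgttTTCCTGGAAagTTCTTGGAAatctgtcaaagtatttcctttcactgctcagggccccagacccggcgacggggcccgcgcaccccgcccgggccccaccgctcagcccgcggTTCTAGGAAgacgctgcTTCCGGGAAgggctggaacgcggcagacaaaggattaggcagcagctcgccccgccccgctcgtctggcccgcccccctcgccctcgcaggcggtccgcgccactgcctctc
SOCS3: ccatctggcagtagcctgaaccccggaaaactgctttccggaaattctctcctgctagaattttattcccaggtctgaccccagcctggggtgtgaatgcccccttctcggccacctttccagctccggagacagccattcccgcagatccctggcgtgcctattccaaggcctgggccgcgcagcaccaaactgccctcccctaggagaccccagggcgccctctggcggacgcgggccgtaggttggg
The CISH window held 4 matches, at bases -241 to -233, -230 to -222, -129 to -121 and -112 to -104 counted from the start, with the letters TTCCTGGAA, TTCTTGGAA, TTCTAGGAA and TTCCGGGAA. Windows were given for 5 members, CISH, SOCS1, SOCS3 (with 2 start sites), SOCS4 and SOCS6, and of these 6 windows the CISH window alone held the motif. Of 35116 promoter windows of this length in the table, 6.57% held at least 1 match and 5 held 4 or more. A match describes the letters of the window and is not a measured binding site. Bases outside the windows were not read, so a window without a match does not mean a gene without such motifs.

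The values are log2 signals after GCRMA, a background correction and normalisation between arrays. Replicates of a group correlated at 0.9965 to 0.9982 over the probe sets other than array controls, against 0.9731 to 0.9890 between groups. The array CdCl 48 h replicate 2 stood apart in its control probe sets. Its mean over the hybridisation controls was 10.08 against 10.38 to 10.70 on the other 11 arrays, and its mean over 27 poly-A spike-in probe sets was 5.40, the lowest of the 12. Without it, 5 members were called at 48 h (3 higher and 2 lower), and the values that moved are given beside each gene. All 5 epithelial marker genes were above 4 on every control array. Of 14 proximal tubule markers, 5 were above 4 on all 3 control arrays at 12 h, SLC4A4, CDH6, CDH16, PAX8 and GATM, whereas the endocytic receptors LRP2 and CUBN, the water channel AQP1 and the phosphate transporter SLC34A1 were under 4 on all arrays. The mean of the tubule list ran from 5.46 to 5.48 on the control and from 5.23 to 5.36 on the CdCl arrays at 12 h, and from 5.33 to 5.39 and from 4.69 to 4.74 at 48 h. The mean of the epithelial list was 10.84 to 10.96 in control and 10.58 to 10.65 in CdCl cells at 12 h, and overlapped at 48 h. Their part in the results was not tested. The listed immune (3) and endothelial (4) markers were under 4 on all arrays, of 4 fibroblast markers COL1A1 and DCN were above it, and of 2 markers of later tubule segments AQP2 was. The spike-in mean was 0.41 higher with CdCl at 12 h, with no overlap between the groups. At 48 h it was 6.19, 5.40 and 6.10 in CdCl and 5.67, 5.72 and 5.84 in control cells, which overlapped, and the difference of 0.15 was 0.40 without CdCl 48 h replicate 2. Its part in the results was not tested. In bulk RNA, fewer cells of a kind and less RNA per cell cannot be told apart.

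On the probe sets read, most members were called with CdCl at each time, in no common direction. SOCS2 rose, weakly at 12 h and by more than 4 log2 units at 48 h. SOCS3 rose at 12 h and, on its brightest probe set alone, was lower than control at 48 h. SOCS6 rose at both times, and CISH fell at both, with a call at 48 h that was lost without either of 2 arrays. Of the 8 members, 4 rose (SOCS2, SOCS3, SOCS4 and SOCS6), 1 fell (CISH) and 3 did not pass the test at 12 h, so that 62.5% were called beside 56.4% of all genes tested. The share called was thus near that of all genes. Higher calls made up 50% of the members beside 16.7% of all genes, and the 1 lower call stood beside 39.7%. The 3 CdCl arrays lay clear above the controls in the same 4 members (19.8% of all genes) and clear below them in 1 (46.6%). At 48 h, 3 rose (SOCS2, SOCS4 and SOCS6), 3 fell (SOCS3, SOCS5 and CISH) and 2 did not pass, or 75% beside 54.6% of all genes, with 37.5% higher beside 26.5% and 37.5% lower beside 28%. Groups without overlap were again the called ones, 3 higher beside 29.1% and 3 lower beside 30.9% of all genes. With the mean of all probe sets of a gene, 3 of 7 tested members were called at 48 h. SOCS2, counted among the higher members at both times, would not have passed the filter without its CdCl arrays. The higher shares of the members are thus partly set by the filter. The median change was 0.08 over the 8 members and -0.16 over all tested genes at 12 h, and 0.13 and -0.02 at 48 h. Lower genes made up 70.4% of the calls at 12 h as deposited and 52.1% after each array was centred on its median, which left the members' counts at 4 higher and 1 lower.

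**Figure D1:**
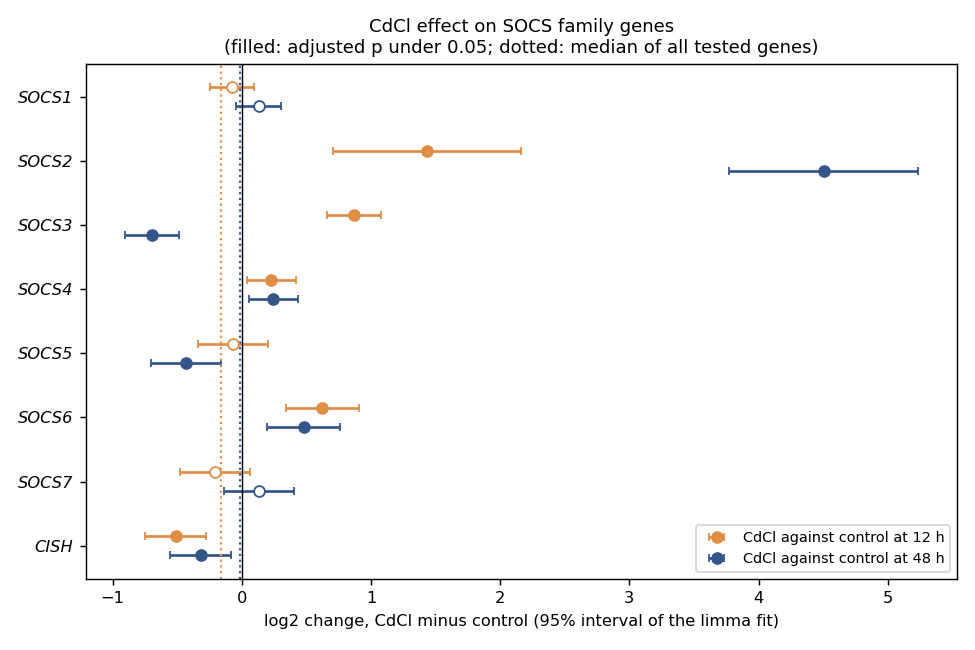
Change of each SOCS family gene with CdCl, as the log2 difference from control at 12 h (orange) and 48 h (blue), with the 95% interval of the limma fit over 12 arrays; filled points had an adjusted p under 0.05 and dotted lines give the median of all tested genes. SOCS2 lies farthest right at 48 h (4.50), and SOCS3 lies right of 0 at 12 h (0.86) and left of it at 48 h (-0.69).

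SOCS2, a brake on growth hormone receptor signalling, had the largest change of the family. Its log2 signals were 3.83, 2.54 and 3.73 in control and 4.64, 4.62 and 5.15 in CdCl cells at 12 h. At 48 h they were 3.12, 4.19 and 3.77 in control and 8.24, 8.04 and 8.31 in CdCl cells. The 3 CdCl arrays lay above the 3 controls at each time. Of the 6 control arrays 5 were under 4, so that the gene would not have passed the filter without its CdCl arrays. The difference was 1.43 ± 0.33 (SE of the fit, n = 3 per group) at 12 h (limma adjusted p = 0.0032) and 4.50 ± 0.33 at 48 h (adjusted p = 5.7e-07). With values under 4 set to 4, SOCS2 was at least 1.74-fold higher at 12 h and at least 17.5-fold higher at 48 h. With most control values under 4, the size of the difference itself is not measured beyond these bounds. The effect at 48 h exceeded that at 12 h by 3.07 ± 0.47 (adjusted p = 4.7e-04), and by 3.33 ± 0.18 with values under 4 set to 4 (adjusted p = 4.3e-07). That setting made 5 of the 6 control values equal, so its smaller SE and p are no firmer support.

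The next probe set of SOCS2 gave 2.91 ± 0.07 (SD, n = 3) in control and 3.05 ± 0.11 in CdCl cells at 12 h, and 2.91 ± 0.09 and 7.18 ± 0.37 at 48 h. It showed the rise at 48 h (4.27 ± 0.15, SE) but not the one at 12 h (0.15 ± 0.15, adjusted p = 0.44). The last one stayed between 2.37 and 2.41 on all 12 arrays. The early rise of SOCS2 was thus seen on 1 of its probe sets only, with control arrays under 4, whereas the late rise was seen on 2.

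SOCS3, the feedback inhibitor of IL-6 signalling, gave 8.19, 8.22 and 8.34 in control and 9.18, 9.26 and 8.90 in CdCl cells at 12 h. At 48 h its signals were 7.44, 7.51 and 7.58 in control and 6.73, 6.91 and 6.80 in CdCl cells. The CdCl arrays were all above the controls at 12 h and all below them at 48 h. The change was 0.86 ± 0.10 at 12 h, or 1.82-fold higher (adjusted p = 1.7e-05), and -0.69 ± 0.10 at 48 h, or 1.62-fold lower (adjusted p = 8.2e-05). The difference between these effects was -1.56 ± 0.14 (adjusted p = 1.4e-05), and it ranked as number 132 among the falls of 10683 genes. A higher call at 12 h with a lower call at 48 h was found in 123 genes, 1.15% of those tested, and in SOCS3 alone of the members. Lower calls at 12 h followed by higher calls at 48 h made up 4.09% of the tested genes and 0 members.

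The other probe sets of SOCS3 showed less. The one with the next highest mean gave 5.37 ± 0.16 (SD, n = 3) in control and 5.92 ± 0.29 in CdCl cells at 12 h, a rise of 0.55 ± 0.20 (adjusted p = 0.037), and 4.81 ± 0.29 and 4.95 ± 0.33 at 48 h, a difference of 0.14 ± 0.20 (adjusted p = 0.59). A further one, between 4.50 and 4.90 on all arrays, differed by 0.20 ± 0.08 at 12 h (adjusted p = 0.060) and 0.01 ± 0.08 at 48 h (adjusted p = 0.95), and the last stayed between 2.27 and 2.30. The fall at 48 h was thus seen on the brightest probe set alone, and with the mean of all probe sets it was -0.14 (adjusted p = 0.12). The difference between the effects was -0.41 (adjusted p = 0.28) and -0.19 (adjusted p = 0.22) on the other tested probe sets, and -0.54 with the mean of all (adjusted p = 0.0014).

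**Figure D2:**
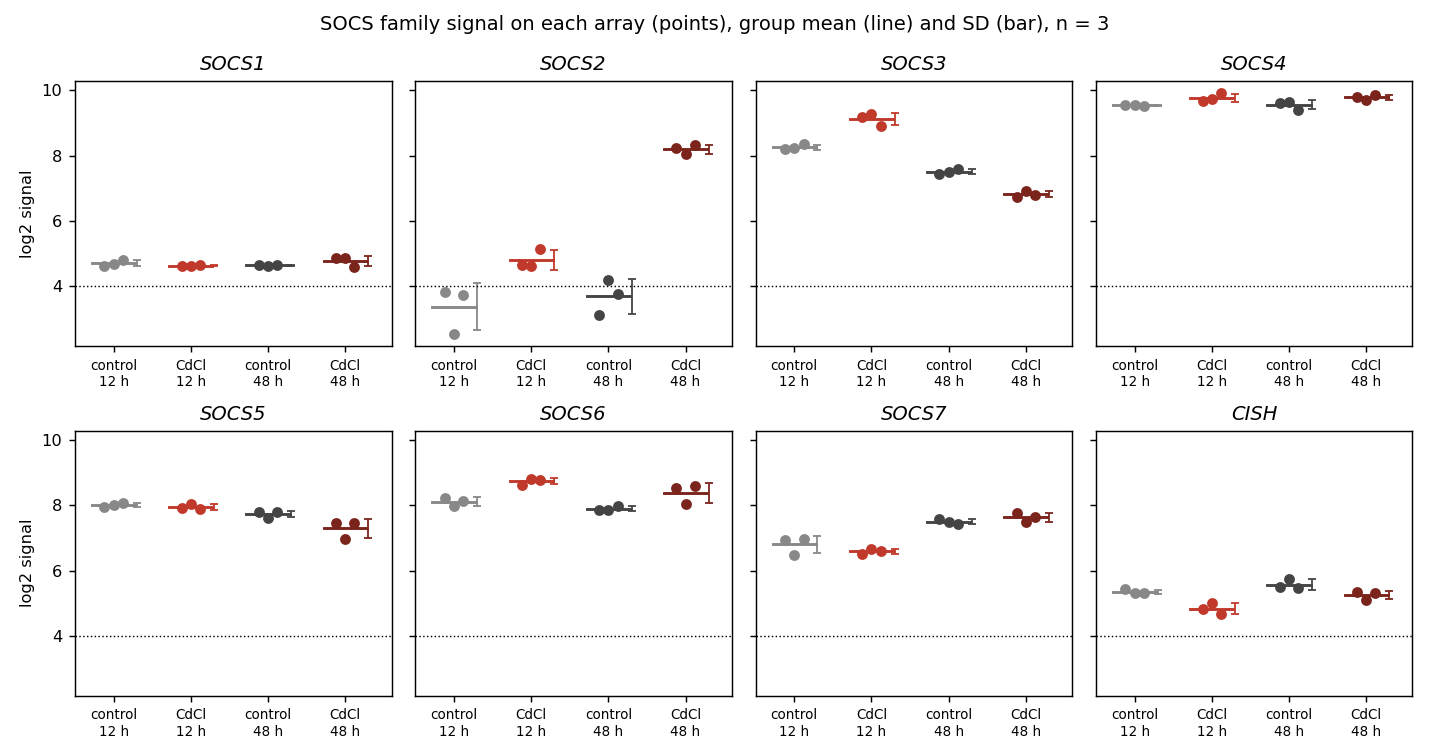
Log2 signal of each SOCS family gene on all 12 arrays (points), by group, with the group mean (line) and SD (bar, n = 3); the dotted line is the filter value of 4. SOCS2 is near or under the line in both control groups and at 8.04 to 8.31 with CdCl at 48 h. SOCS3, on its brightest probe set, is highest with CdCl at 12 h and lowest with CdCl at 48 h.

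CISH, the STAT5-induced member whose promoter carries the 4 motifs shown above, fell at both times. Its log2 signals were 5.43, 5.31 and 5.32 in control and 4.84, 5.01 and 4.67 in CdCl cells at 12 h, and 5.49, 5.76 and 5.46 in control and 5.33, 5.10 and 5.31 in CdCl cells at 48 h. The groups did not overlap at either time, and every value was modest. The probe set read for CISH carries the suffix that Affymetrix uses for probes that may match other transcripts. The change was -0.51 ± 0.11 at 12 h (adjusted p = 0.0017), or 1.43-fold lower, and -0.32 ± 0.11 at 48 h (adjusted p = 0.025), or 1.25-fold lower. The 12 h change was -0.35 relative to the median of all tested genes. The call at 48 h ended without control 48 h replicate 2 (-0.23, adjusted p = 0.11) or CdCl 48 h replicate 2 (-0.25, adjusted p = 0.092). The next probe set of CISH fell at 12 h as well (-0.62 ± 0.24, adjusted p = 0.049) and at 48 h differed by -0.38 ± 0.24 (adjusted p = 0.22), while another, all of its values between 3.29 and 3.84, was under the filter. On the probe sets read, CISH and SOCS2, both known as STAT5 targets, were called in opposite directions at both times. At 12 h the SOCS2 call was on 1 of its 2 tested probe sets, from control arrays under 4. At 48 h the CISH call was the one lost without either array named above. STAT5 activity was not measured.

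SOCS1, the member that inhibits JAKs directly in interferon signalling, lay close to the filter value. It gave 4.62, 4.69 and 4.80 in control and 4.63, 4.62 and 4.65 in CdCl cells at 12 h, and 4.66, 4.62 and 4.65 in control and 4.86, 4.85 and 4.60 in CdCl cells at 48 h. The groups overlapped at both times. The differences were -0.07 ± 0.08 (adjusted p = 0.45) and 0.13 ± 0.08 (adjusted p = 0.19), with 95% intervals of -0.25 to 0.10 and -0.04 to 0.30. Without CdCl 48 h replicate 3 the 48 h difference was 0.21 (adjusted p = 0.026). The other SOCS1 probe sets were between 2.40 and 4.17.

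Among the members with long amino-terminal regions, SOCS6 responded most. Its log2 signals were 8.22, 7.97 and 8.15 in control and 8.63, 8.80 and 8.78 in CdCl cells at 12 h, and 7.86, 7.86 and 7.98 in control and 8.53, 8.04 and 8.58 in CdCl cells at 48 h. CdCl arrays lay above controls at both times, although CdCl 48 h replicate 2 was only just above. Without it the 48 h rise was 0.65 (adjusted p = 1.6e-04). The rise was 0.62 ± 0.13 at 12 h (1.54-fold, adjusted p = 0.0016) and 0.48 ± 0.13 at 48 h (1.40-fold, adjusted p = 0.0078), and the difference between the effects did not pass the test (-0.14 ± 0.18, adjusted p = 0.56). The next probe set of SOCS6 rose by 0.86 ± 0.22 and 0.88 ± 0.22 (adjusted p = 0.0066 and 0.0064), so that 2 probe sets showed the rise at both times. The weakest one, near 4, differed by 0.58 ± 0.32 and 0.44 ± 0.32 and was not called. Higher calls at both times were found in 11.4% of all genes tested and in 3 members, SOCS2, SOCS4 and SOCS6; lower calls at both were found in 19% and in 1 member, CISH.

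SOCS4, linked to EGF receptor turnover, moved little. It gave 9.54, 9.56 and 9.53 in control and 9.66, 9.73 and 9.91 in CdCl cells at 12 h, and 9.62, 9.64 and 9.39 in control and 9.80, 9.71 and 9.86 in CdCl cells at 48 h, without overlap. The rise was 0.23 ± 0.09 (adjusted p = 0.041) at 12 h and 0.24 ± 0.09 (adjusted p = 0.034) at 48 h, or 1.17-fold and 1.18-fold. At 12 h the call ended when any array of control at 12 h, CdCl 12 h replicate 2 or 3, or CdCl 48 h replicate 1 was left out (adjusted p = 0.053 to 0.16). Without CdCl 12 h replicate 3 the 12 h change was 0.16. A weaker probe set, from 2.47 to 4.51 over the arrays, differed by 0.65 ± 0.36 and 0.50 ± 0.36 and was not called. At 48 h the call ended without control 48 h replicate 3 (0.16, adjusted p = 0.13), CdCl 48 h replicate 1 (0.23, adjusted p = 0.078) or CdCl 48 h replicate 3 (0.21, adjusted p = 0.11).

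For SOCS5, the closest relative of SOCS4, the probe sets disagreed. The brightest one gave 7.95, 8.01 and 8.07 in control and 7.90, 8.05 and 7.88 in CdCl cells at 12 h, and 7.78, 7.62 and 7.79 in control and 7.46, 6.96 and 7.47 in CdCl cells at 48 h. The groups overlapped at 12 h (-0.07 ± 0.12, adjusted p = 0.68) and not at 48 h, where SOCS5 fell by 0.43 ± 0.12 (adjusted p = 0.011), and by 0.26 without CdCl 48 h replicate 2, the lowest array (adjusted p = 0.018). A weaker probe set gave the same picture, with -0.06 ± 0.10 at 12 h (adjusted p = 0.65) and -0.49 ± 0.10 at 48 h (adjusted p = 0.0016). The remaining one went from 7.05 ± 0.11 (SD) in control to 7.58 ± 0.07 in CdCl cells at 12 h, a rise of 0.53 ± 0.07 (adjusted p = 1.4e-04), and differed by -0.06 ± 0.07 at 48 h (adjusted p = 0.56). The effect at 48 h was below that at 12 h on each of them, by 0.37 on the brightest (adjusted p = 0.11), 0.43 (adjusted p = 0.033) and 0.59 (adjusted p = 0.0016) on the others. The brightest probe set carries the suffix that Affymetrix uses for probes that may match other transcripts.

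**Figure D3:**
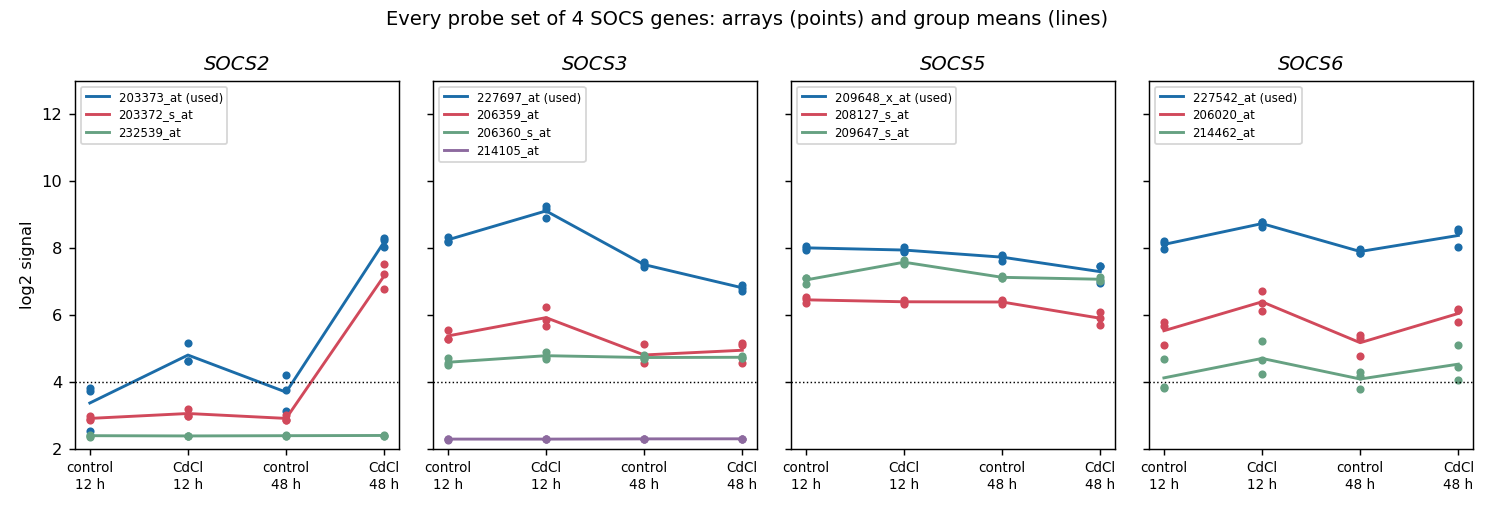
Log2 signal of every one-symbol probe set of SOCS2, SOCS3, SOCS5 and SOCS6 on the 12 arrays (points) with the group means joined by lines; "used" marks the probe set with the highest mean, and the dotted line is the filter value of 4. The rise of SOCS2 at 48 h and the rises of SOCS6 appear on more than 1 probe set, whereas the fall of SOCS3 at 48 h appears on the brightest only.

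SOCS7, linked to insulin signalling, did not pass the test for CdCl at either time. It gave 6.95, 6.49 and 6.97 in control and 6.51, 6.66 and 6.61 in CdCl cells at 12 h (-0.21 ± 0.12, adjusted p = 0.17), and 7.59, 7.49 and 7.42 in control and 7.77, 7.49 and 7.63 in CdCl cells at 48 h (0.13 ± 0.12, adjusted p = 0.39). The groups overlapped at both times, with 95% intervals of -0.48 to 0.06 and -0.14 to 0.40. Without control 12 h replicate 2, the lowest of its group, the 12 h difference was -0.37 (adjusted p = 0.0083). The next probe set of SOCS7 differed by 0.01 ± 0.16 and 0.22 ± 0.16 with CdCl (adjusted p = 0.95 and 0.27).

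Some members differed between the control groups of the 2 times. The control arrays also differed in their spike-in means, 5.97 to 6.18 at 12 h and 5.67 to 5.84 at 48 h. The log2 difference between the 3' and 5' actin control probe sets was 1.71 to 2.11 at 12 h and 1.36 to 1.57 at 48 h. The part of time in culture and of these differences was not tested. Between 12 h and 48 h in control cells SOCS7 rose by 0.70 ± 0.12 (adjusted p = 4.5e-04) and SOCS3 fell by 0.74 ± 0.10 (adjusted p = 4.3e-05), and the other 6 members did not pass the test, or 25% called beside 56.9% of all genes tested (23.4% higher and 33.5% lower). CISH passed here after quantile normalisation (0.22, adjusted p = 0.040) or centring (0.30, adjusted p = 0.018). Arrays of the control groups did not overlap for 2 higher members, SOCS7 and CISH, beside 27.4% of all genes, nor for 2 lower members, SOCS3 and SOCS5, beside 37.1%. Without CdCl 48 h replicate 2 the count of calls between the control groups was 4, with SOCS5 (-0.28, adjusted p = 0.0066) and SOCS6 (-0.21, adjusted p = 0.045) added. In CdCl cells SOCS2 (3.39 ± 0.33), SOCS7 (1.04 ± 0.12) and CISH (0.41 ± 0.11) were higher at 48 h than at 12 h, and SOCS3 (-2.30 ± 0.10), SOCS5 (-0.65 ± 0.12) and SOCS6 (-0.35 ± 0.13) were lower, 75% of the members beside 62.3% of all genes (34.7% higher and 27.6% lower). The adjusted p ran from 4.9e-09 for SOCS3 to 0.031 for SOCS6 by limma, and the arrays of the CdCl groups did not overlap in these 3 higher and 3 lower members, beside 38% and 30% of all genes. On its brightest probe set SOCS3 was 4.92-fold lower at 48 h than at 12 h in CdCl cells and 1.67-fold lower in control cells. The next one changed by -0.98 and -0.57 (adjusted p = 0.0013 and 0.030). A further one differed by -0.05 and 0.14 (adjusted p = 0.64 and 0.16). In CdCl cells the other tested probe sets of SOCS6 (-0.35 and -0.17, adjusted p = 0.20 and 0.67) and CISH (0.52, adjusted p = 0.084) were not called. Those of SOCS2, SOCS5 and SOCS7 were called in the direction given above. The difference between the CdCl effects at the 2 times passed the test for SOCS2 and SOCS3 only, 25% of the members beside 40.1% of all genes. Of all genes 27% had the higher effect at 48 h, as SOCS2 did, and 13% the lower one, as SOCS3 did.

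Ordered by level on the probe sets read, SOCS3 ran from CdCl at 12 h through control at 12 h and control at 48 h to CdCl at 48 h. Neighbours did not overlap. On its next probe set the 48 h groups overlapped, at means of 4.81 in control and 4.95 in CdCl cells. SOCS2 ran from CdCl at 48 h to CdCl at 12 h and then to the control groups, which overlapped each other. For SOCS6 the order was CdCl at 12 h, CdCl at 48 h, control at 12 h and control at 48 h, and the last 3 overlapped with their neighbours. SOCS7 was ordered by time, with each pair of groups of the same time overlapping. CISH was highest in control at 48 h, followed by control at 12 h and CdCl at 48 h, which overlapped, and lowest in CdCl at 12 h. SOCS4 had the CdCl groups, overlapping, above the control groups, which overlapped too. SOCS5 had both 12 h groups, overlapping, above control at 48 h and then CdCl at 48 h, but its probe sets disagreed, as given above.

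Over the 12 arrays, the tested genes whose signal followed that of SOCS2 most closely were SIRT7, a sirtuin deacetylase (Pearson's r = 0.984), the mitochondrial sulfur dioxygenase ETHE1 (0.980), the ribosome factor EIF6 (0.979), WDR83 (0.976) and the arginine methyltransferase PRMT1 (0.974). Their own rises at 48 h were smaller, from 0.61 for PRMT1 to 1.39 for ETHE1. For SOCS3 the nearest were AGT, the angiotensinogen gene (0.992), the transcription cofactor ARID5B (0.986), the annexin ANXA4 (0.985), the carbonic anhydrase CA2 (0.983) and HMGCS1, an enzyme of cholesterol synthesis (0.983). All 5 were higher with CdCl at 12 h, by 0.34 to 1.10, and lower at 48 h, by -0.39 to -0.98. This follows largely from their choice by likeness to the brightest SOCS3 probe set on the same arrays. These correlations describe 12 arrays in 4 groups that differ for most genes, and they carry no test.

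Of 118 listed genes around the family 75 were tested. At 12 h, 23 rose, 23 fell and 29 did not pass, and at 48 h 20 rose, 22 fell and 33 did not, with medians of 0.00 at both times. These were 30.7% higher and 30.7% lower at 12 h, beside 16.7% and 39.7% of all genes tested, and 26.7% and 29.3% at 48 h, beside 26.5% and 28%, the shares against which the counts by role are to be read. Of 16 listed ligands 3 passed the filter and were called higher at both times. IL11 passed through its CdCl arrays only, so this count is partly set by the filter and is no support for a rise of the ligands. The cytokine gene IL6 rose by 2.68 ± 0.10 and 2.14 ± 0.10 (adjusted p = 2.9e-09 and 1.8e-08), at 48 h from control arrays under 4 and so by at least 3.27-fold, and LIF, which also signals through gp130, by 0.51 ± 0.08 and 0.74 ± 0.08 (adjusted p = 1.5e-04 and 8.3e-06). IL11, another gp130 cytokine, was at least 9.85-fold higher at 12 h and at least 1.34-fold higher at 48 h. IL6 was thus higher with CdCl at both times, and SOCS3 was higher at 12 h and, on its brightest probe set, lower at 48 h. The other tested SOCS3 probe sets differed by 0.14 and 0.01 at 48 h and were not called. A link between the 2 genes was not tested.

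Of 15 tested receptor genes, 5 rose and 6 fell at 12 h, and 1 rose and 6 fell at 48 h. The interleukin 7 receptor gene IL7R was at least 3.61-fold and at least 2.42-fold higher. Its control arrays reached at most 2.64 at 12 h and 2.54 at 48 h, so that IL7R passed the filter through its CdCl arrays only. It was 1 of the 5 receptor genes that rose at 12 h and the 1 that rose at 48 h. These higher counts are thus partly set by the filter. LIFR, the LIF receptor, changed by -0.45 ± 0.15 and -1.57 ± 0.15 (adjusted p = 0.021 and 4.0e-06), and the interferon gamma receptor chain IFNGR2 by -0.58 ± 0.15 and -1.17 ± 0.15. The kinase gene TYK2 was lower at 12 h (-0.92 ± 0.08, adjusted p = 3.4e-06) and differed by 0.04 at 48 h, and JAK1 rose at 48 h (0.85 ± 0.08, adjusted p = 3.1e-06) after a difference of 0.07 at 12 h. Among 4 tested STAT genes, 1 rose and 3 fell at 12 h and 0 rose and 1 fell at 48 h. STAT4 rose by 1.43 ± 0.11 at 12 h, STAT6 changed by -0.51 ± 0.07 at 12 h, and STAT3 was lower at both times (-0.35 ± 0.11 and -0.42 ± 0.11, adjusted p = 0.021 and 0.0090).

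Of 10 other inhibitors of the pathway, 3 rose and 3 fell at 12 h, and 2 rose and 2 fell at 48 h. The phosphatase gene PTPN1 rose by 1.24 ± 0.08 and 0.29 ± 0.08, and the STAT3 inhibitor PIAS3 and the phosphatase PTPN6 each changed by -0.75 at 12 h. All 7 genes listed as ubiquitin ligase partners were tested, ELOB, ELOC, CUL5, CUL2, RNF7, RBX1 and UBE2F. Of these 1 rose and 2 fell at 12 h, and 3 rose and 2 fell at 48 h. The falls at both times were those of CUL2 (-0.20 ± 0.08 and -0.29 ± 0.08) and RBX1, a RING subunit of cullin ligases (-0.30 ± 0.07 and -0.44 ± 0.07). RNF7 rose at both times (0.21 ± 0.08 and 0.30 ± 0.08). ELOB and ELOC rose at 48 h, by 0.33 ± 0.07 and 0.44 ± 0.08. CUL5, the gene of the cullin named above for the SOCS box, was not called at either time. Other SOCS box genes were called higher in 2 and lower in 4 of 12 at 12 h and in 3 and 3 at 48 h, with SPSB1 rising by 0.55 ± 0.10 and 1.62 ± 0.10 and WSB1 by 0.31 ± 0.10 and 0.80 ± 0.10, while ASB8 changed by -1.05 ± 0.11 and -0.29 ± 0.11.

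In growth factor and insulin signalling, 2 rose and 1 fell of 7 tested at 12 h, and 2 rose and 2 fell at 48 h. IGF1R, the receptor of insulin-like growth factor 1, rose by 0.49 ± 0.16 at 12 h and changed by -0.65 ± 0.16 at 48 h (adjusted p = 0.021 and 0.0051). The docking protein gene IRS2 was lower at both times (-0.30 ± 0.06 and -0.60 ± 0.06), and IRS1 rose at 48 h (0.40 ± 0.12). Of 15 tested textbook STAT targets, 6 rose and 3 fell at 12 h, and 5 rose and 6 fell at 48 h. CEBPB, a transcription factor of the acute phase response, rose by 1.59 ± 0.06 and 0.75 ± 0.06, VEGFA rose by 1.31 ± 0.11 at 12 h and changed by -0.32 ± 0.11 at 48 h, and the interferon-induced GBP2 was lower at both times (-0.52 ± 0.12 and -1.17 ± 0.12).

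**Figure D4:**
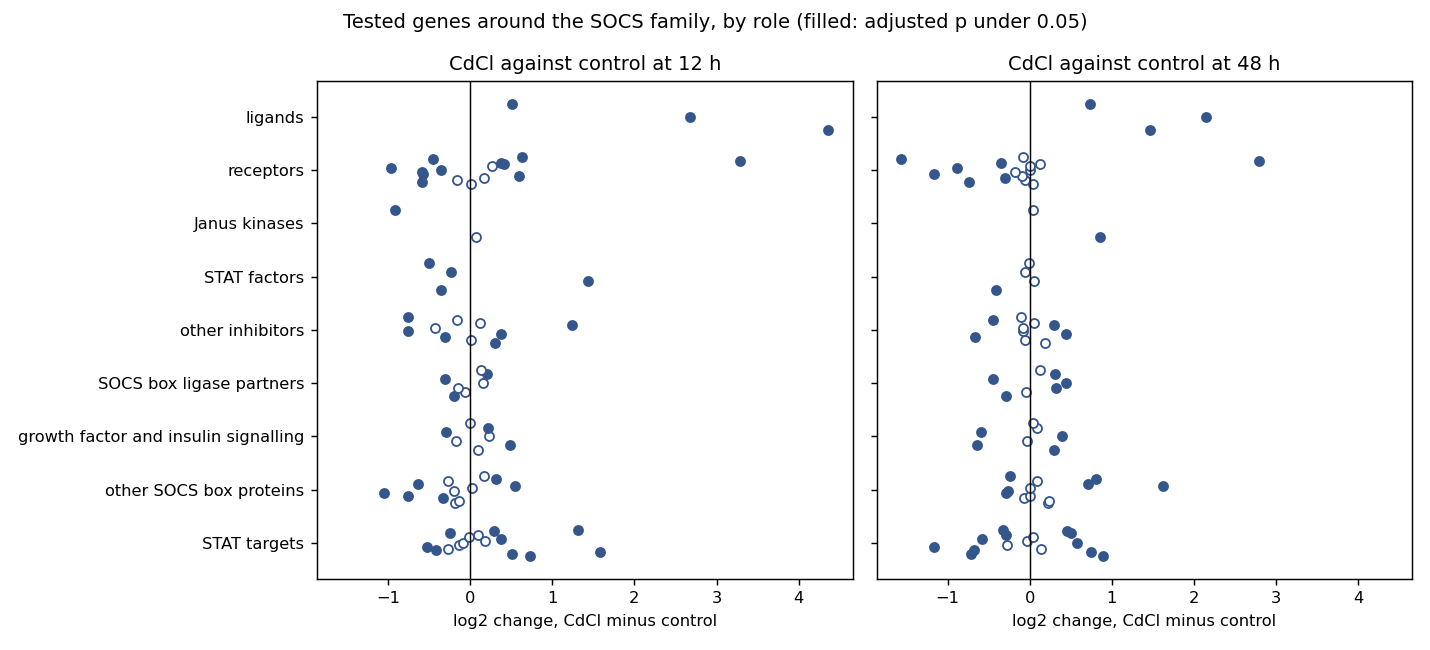
Log2 change with CdCl of the 75 tested genes around the SOCS family, grouped by role, at 12 h (left) and 48 h (right); each point is a gene and filled points had an adjusted p under 0.05. The 3 ligands past the filter, 1 of them through its CdCl arrays only, lie right of 0 at both times, and the other roles, but for the Janus kinases at 48 h, hold genes on both sides of it.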

How the data were processed

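Biotin-labelled cRNA from total RNA was hybridised to Affymetrix arrays, and the deposited log2 signals per probe set were made by the authors with GCRMA, per the submitters' processing notes, and the sources used here name no version. Of 54675 probe sets, 41091 carried exactly 1 symbol, 1801 several and 11777 none, and the remaining 6 were array controls with a symbol, left out. Each gene was read on its brightest probe set by 12-array mean, and 10683 genes above 4 on at least 3 arrays were tested. The value 4 is a filter, not a measured background, and arrays without detection calls limit what can be said of weak genes; the number of arrays limits the precision.

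One limma fit (limma 3.58.1, R 4.3.3) of 4 group means, without a replicate block, gave all comparisons, two-sided, with Benjamini-Hochberg adjustment over the 10683 genes and a threshold of 0.05. Changes are ± SE. Other probe sets were fitted over all 1-symbol probe sets past the filter, an alternative added after seeing the data, as was setting values under 4 to 4. The pipeline was tested on simulated data. All 8 members are named. Likeness was computed for the member with the largest change and the one with the largest fall. Each role of the pathway list names its 3 largest changes past the threshold, and the 7 ligase partners are all named. Members and lists were chosen with earlier results of these data known. Motifs were searched in RefSeq windows. No column of another sample was used.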

Additional observations from a re-analysis of the deposited data

Results flagged for a closer look

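The effect of CdCl differed between 12 h and 48 h in 2 members by the interaction term of the limma fit. For SOCS2 the effect at 48 h minus that at 12 h was 3.07 ± 0.47 (adjusted p = 4.7e-04). Since 5 of the 6 control arrays were under the filter value of 4, its size is uncertain. With values under 4 set to 4 it was 3.33 ± 0.18 (adjusted p = 4.3e-07). That setting made these 5 control values equal, so its smaller SE and p are no firmer support. For SOCS3 it was -1.56 ± 0.14 (adjusted p = 1.4e-05), with all 3 CdCl arrays above the controls at 12 h and all 3 below them at 48 h. This turn was seen on the brightest SOCS3 probe set only, and the difference of the effects on the other tested probe sets was -0.41 (adjusted p = 0.28) and -0.19 (adjusted p = 0.22).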

How the results depend on the processing

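Of the comparisons of the 8 members under all alternatives, 772 kept direction and side of the threshold, 24 lost a call, 11 gained one and 18 changed sign without a call on either side; no called change reversed. With the mean of all probe sets of a gene, the members called at 48 h were 3 in place of 6, SOCS1 falling under the filter and SOCS3, SOCS4 (0.37, adjusted p = 0.15) and CISH (-0.21, adjusted p = 0.11) losing their calls. With no filter, SOCS4 at 12 h (adjusted p = 0.059), CISH at 48 h (adjusted p = 0.051) and SOCS6 between the CdCl groups (adjusted p = 0.073) lost theirs. The replicate block ended the SOCS4 calls at both times (adjusted p = 0.070 and 0.059), for 4 members called at 12 h and 5 at 48 h. Leaving out each array gave 4 to 5 members called at 12 h, 5 to 6 at 48 h, 2 to 3 for the difference of the effects, 2 to 4 between the control groups and 5 to 7 between the CdCl groups. The fall of SOCS6 in CdCl cells from 12 h to 48 h was lost without CdCl 12 h replicate 2 or 3 or CdCl 48 h replicate 2 (-0.32, -0.33 and -0.18; adjusted p = 0.087, 0.081 and 0.11). SOCS5 gained a call for the difference of the effects after centring (-0.49, adjusted p = 0.031), as did SOCS7 without control 12 h replicate 2 (0.50, adjusted p = 0.012) and SOCS1 without CdCl 48 h replicate 3 (0.29, adjusted p = 0.034). Centring moved the lower share of calls for the difference of the effects from 32.6% to 51.1%, and its higher calls from 2888 to 1907; at 12 h centring moved the lower calls over all genes from 4246 to 2830. The totals of genes called moved by less than 1.5 times under every alternative run. Residuals of same-numbered arrays correlated at -0.34 to 0.16, over 0.1 in 3 of 18 pairs. Those of other numbers correlated at -0.16 to 0.31, over 0.1 in 5 of 36 pairs. The residuals thus gave no sign of pairing by number, which 3 arrays per group cannot exclude.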
